A study of Arabidopsis thaliana with 13 samples.

Results

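The tau and phi classes of glutathione transferase were followed across sorted Arabidopsis thaliana root cells. The 39 members were 28 tau genes (GSTU1 to GSTU28) and 11 phi genes (GSTF2, GSTF3 and GSTF6 to GSTF14), out of 33560 genes in the deposited table, and all 39 were found there by locus identifier. They were chosen by measured values, because GSTU6 had already been seen to be higher in wox5-1 than in wild-type QC-marker cells. Values of that comparison are therefore a description. Where the fit's calls are counted there, the share of all genes called stands beside them, no p-value is given and nothing is read from them about the classes.

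Roots of Col-0 seedlings were protoplasted 5 days after germination, and fluorescent cells were sorted by a reporter that all groups of a population carried. WOX5::GFP marked the quiescent centre (QC), a few slowly dividing cells around which the stem cells of the root lie, and CYCD6::GUS-GFP marked the CEI population (CEI, cortex/endodermis initial). QC-marker cells came from the wox5-1 mutant (n = 4 libraries) and the wild type (n = 3), and CEI-marker cells from wox5-1 (n = 3) and the wild type (n = 3). WOX5 encodes a homeobox transcription factor, and wox5-1 is a mutant allele of it. A sorted population is the cells in which the reporter's promoter was active, in the mutant as in the wild type. The labels give the libraries as biological replicates and name no batch. Libraries carry here the numbers of the deposited columns, which for CEI-marker cells are 1, 2 and 4 in wox5-1 and 1, 3 and 4 in the wild type and serve only as names.

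Glutathione transferases join the peptide glutathione to reactive or foreign molecules, and transporters of the ABCC family carry many of the conjugates into the vacuole. Tau and phi are the largest classes of the family in plants, and many of their genes sit in tandem clusters that arose by local duplication. Many members are induced by herbicide safeners, oxylipins, wounding, pathogens or drought, which made them standard markers of detoxification and stress responses. Others act in the making or transport of specialised metabolites such as camalexin, glucosinolates and anthocyanins.

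All levels are FPKM, as the authors deposited them. FPKM counts sequenced fragments of a gene after scaling by transcript length and by library depth, so levels of different genes can be set side by side. Changes were estimated on log2(FPKM + 1), a scale that understates the change of genes with low FPKM, and are given with their standard error (SE). A gene was called when its adjusted p was under 0.05 in a limma fit over the 21574 genes that reached 1 FPKM in at least 3 libraries. Of the members, 34 entered that fit, 26 tau and 8 phi. The 5 others, GSTU15, GSTU21, GSTF3, GSTF11 and GSTF14, averaged under 1 FPKM over the 13 libraries, and none of them exceeded 2.64 FPKM in any library. Passing this filter depends on the level itself, so the 34 are not the whole of the classes.

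The markers and the depth bear on what follows. WOX5 was at 0 to 0.114 FPKM in wox5-1 QC-marker libraries, beside 163 to 262 FPKM in wild-type QC-marker libraries. The summed FPKM of 6 QC markers, WOX5 among them, was 224 to 357 in wox5-1 and 641 to 685 in wild-type QC-marker libraries, which did not overlap. In the 6 CEI-marker libraries it was 39.5 to 136. Of the other QC markers, AGL42, TEL1 and WIP5 were lower in wox5-1 QC-marker libraries by range, where 5.82% of all genes tested were so. PLT1 and PLT2 overlapped. CYCD6;1 itself was at 0 to 5.75 FPKM in QC-marker cells and at 0.748 to 22.7 FPKM in CEI-marker cells, and the summed level of 5 CEI and young ground tissue markers overlapped between the populations, so these markers did not set the CEI population apart. Depth relative to wox5-1 QC-marker library 1 was 0.232 to 0.302 in wild-type QC-marker libraries and 0.721 to 1.39 in the others, while the absolute depth is unknown. In wild-type QC-marker library 2, 19783 genes had an FPKM of 0 (5385 to 12971 elsewhere), wild-type CEI-marker library 4 had the highest summed root cap markers (2371 FPKM), and wox5-1 CEI-marker library 1 had 10553 FPKM of green tissue markers, against at most 37.0 FPKM elsewhere.

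The members spanned the whole range from undetected to among the abundant transcripts of these cells. Averaged over 13 libraries, 14 members were at 100 FPKM or above, 9 at 10 to 100 FPKM, 11 at 1 to 10 FPKM and 5 under 1 FPKM. The highest means belonged to GSTU19 (1839 FPKM), a safener-induced tau enzyme, GSTF8 (1141 FPKM), an early stress marker expressed in roots, GSTF9 (1072 FPKM) and GSTF10 (872 FPKM), which is also known as ERD13 for its early response to dehydration. Of the 39, 18 were above 0 in every library, and 19 were listed at 0 in wild-type QC-marker library 2. Together the 39 genes held 1.10% to 1.22% of the summed FPKM in wox5-1 and 0.925% to 1.56% in wild-type QC-marker libraries. In CEI-marker libraries they held 0.760% to 1.05% in wox5-1 and 0.540% to 1.42% in the wild type, so the genotypes overlapped in both populations. In these bulk samples, fewer cells of a type and less RNA per cell cannot be told apart.

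**Figure D1:**
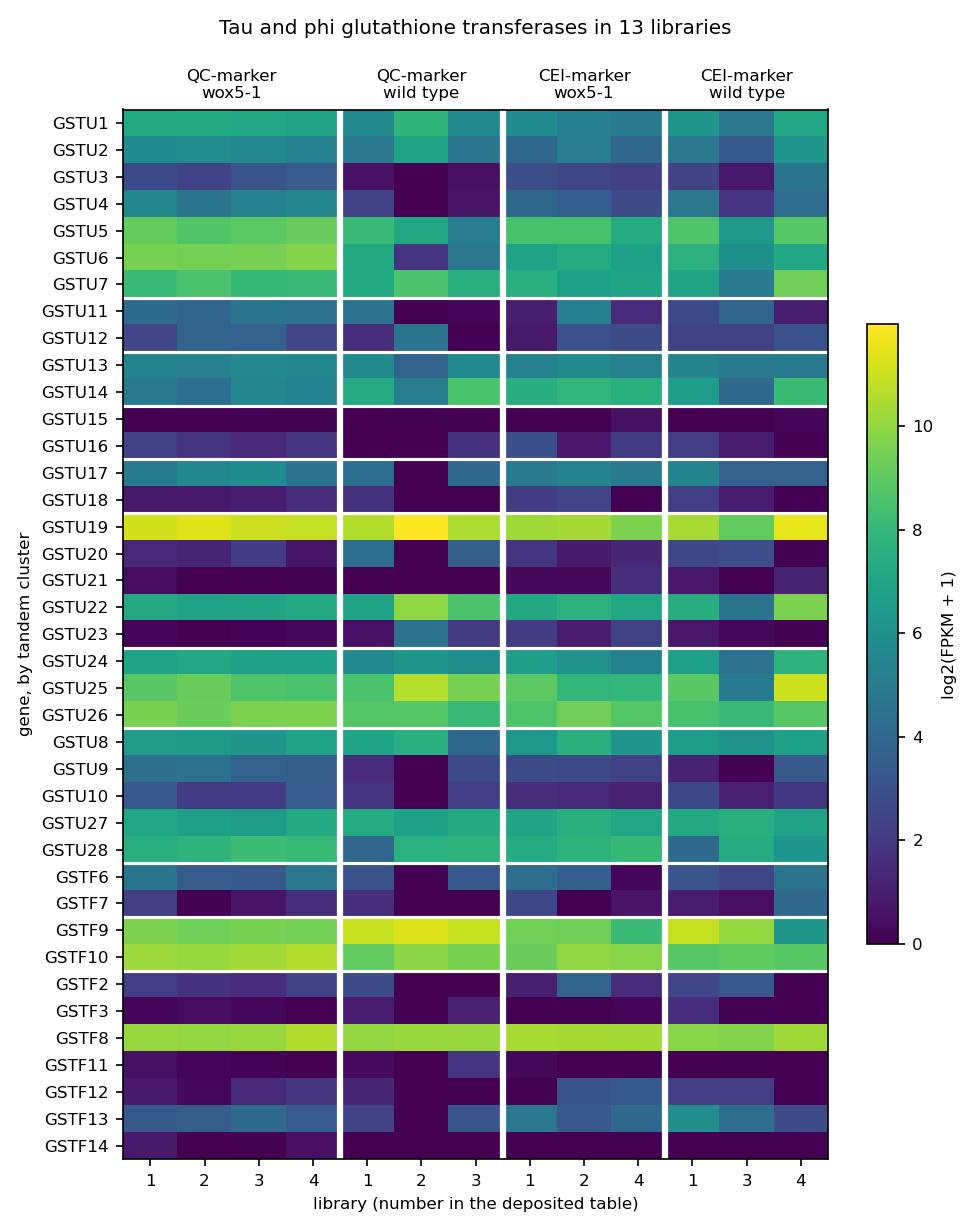
Level of the 39 tau and phi genes in each of the 13 libraries, as log2(FPKM + 1) in colour, with genes down the page by tandem cluster and then by singletons of each class, and libraries across. GSTU19, GSTF8, GSTF9 and GSTF10 are bright in nearly every library, and wild-type QC-marker library 2 holds 19 genes listed at 0.

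The classes are given separately here, with no test of their difference. Tau genes held 0.709% to 0.847% of the summed FPKM in wox5-1 QC-marker libraries, within the 0.471% to 1.02% of wild-type QC-marker libraries. Phi genes held 0.372% to 0.448% in wox5-1 and 0.454% to 0.547% in wild-type QC-marker libraries, ranges that did not overlap but lay close. Within that share GSTF9 was lower in wox5-1 and GSTF10 was higher. In CEI-marker libraries the phi share was 0.317% to 0.446% in wox5-1 and 0.245% to 0.393% in the wild type, and these overlapped. The identity of the top gene differed too, since GSTU19 led in all 4 wox5-1 QC-marker libraries, GSTF9 led in wild-type QC-marker libraries 1 and 3 and wild-type CEI-marker libraries 1 and 3, GSTF8 led in all 3 wox5-1 CEI-marker libraries, and GSTU19 led in wild-type QC-marker library 2 and wild-type CEI-marker library 4.

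Between wox5-1 and wild-type QC-marker cells, 2 of the 34 members tested were called, GSTU4 and GSTU6, both higher in wox5-1. Over all genes tested, 3.43% were called in this comparison and 3.05% were called higher. This is the comparison in which GSTU6 drew attention to the classes, so the count is a description. The median log2 change of the 34 members was 0.77, beside 0.32 over all genes tested. That of all genes was 0.18 under median-of-ratios scaling and -0.07 under quantile normalization, with 0.61 and 0.65 for the members. The libraries of the groups did not overlap for 11 members higher in wox5-1, where 17.8% of all genes tested were so, and for 2 members lower in wox5-1, where 5.82% were. All 3 wild-type libraries were shallower than all 4 wox5-1 libraries, so depth and genotype cannot be told apart here. The count of called members was 6 with array weights (beside 5.80% of all genes), 4 when only the QC-marker libraries were fitted (beside 5.40%), 10 with the 3 libraries that stand apart left out (beside 8.86%), and 5 leaving out wild-type QC-marker library 1 (beside 7.08%), CEI-marker library 3 (beside 4.38%) or CEI-marker library 4 (beside 4.80%).

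The cluster of GSTU1 to GSTU7 held both called genes. Its summed level was 1724 to 1910 FPKM in wox5-1 QC-marker libraries, against 314 to 869 FPKM in wild-type QC-marker libraries, 451 to 751 FPKM in wox5-1 CEI-marker libraries and 221 to 1528 FPKM in wild-type CEI-marker libraries. In the RefSeq annotation of TAIR10.1 the order along the chromosome is GSTU7, GSTU6, GSTU5, GSTU4, GSTU3, GSTU2 and GSTU1. GSTU6 and GSTU5 lie next to each other, as do GSTU4, GSTU3 and GSTU2, while 3 other genes lie between GSTU7 and GSTU6 and 1 each between GSTU5 and GSTU4 and between GSTU2 and GSTU1. The QC-marker libraries of GSTU6, GSTU5, GSTU4 and GSTU3 did not overlap between genotypes. All 4 were higher in wox5-1, where 17.8% of all genes tested were so by range. GSTU1, GSTU2 and GSTU7 overlapped only through 1 wild-type QC-marker library, the one in which 19783 genes had an FPKM of 0. A pattern along the chromosome was not tested.

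GSTU6 (AT2G29440) was at 741, 699, 735 and 851 FPKM in wox5-1 QC-marker libraries 1 to 4, against 153, 2.62 and 25.9 FPKM in wild-type QC-marker libraries 1 to 3. Every wox5-1 library lay above every wild-type library, and the wild-type libraries were far more spread than those of wox5-1. The log2 change was 4.94 (SE 0.85), and it was 3.55 without wild-type QC-marker library 2, in which GSTU6 was lowest. In CEI-marker cells GSTU6 was at 120.4, 161 and 108 FPKM in wox5-1, beside 199, 63.8 and 144 FPKM in the wild type, so those groups overlapped fully. The log2 change there was 0.06 (SE 0.91, 95% interval -1.88 to 2.01, limma adjusted p = 0.991), with the spread taken from all 13 libraries. The difference of the 2 genotype effects, 4.87 on the log2 scale (SE 1.24), contains the comparison that chose the classes and is given without a p-value.

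GSTU4 (AT2G29460) had the same order of group means at a far lower level. It was at 45.0, 23.5, 37.5 and 42.2 FPKM in wox5-1 QC-marker libraries, against 4.09, 0 and 0.553 FPKM in wild-type QC-marker libraries. All 4 wox5-1 libraries were above all 3 wild-type libraries, with a log2 change of 4.22 (SE 0.71). In CEI-marker cells it was at 15.0, 11.0 and 5.55 FPKM in wox5-1, beside 26.2, 2.50 and 18.2 FPKM in the wild type, a log2 change of -0.18 (SE 0.76, limma adjusted p = 0.965). The CEI-marker groups overlapped, and the sign of that change turned to 0.40 without wild-type library 1, 0.15 without wild-type library 4 and 0.18 without wox5-1 library 4.

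GSTU5 (AT2G29450) had the highest mean of the cluster over the 13 libraries. It was at 561, 416, 496 and 575 FPKM in wox5-1 QC-marker libraries, against 276, 144 and 31.0 FPKM in wild-type QC-marker libraries, and the groups did not overlap (log2 change 2.23, SE 0.67, and 1.34 without wild-type QC-marker library 3). It was at 353, 357 and 164 FPKM in wox5-1, beside 403, 87.4 and 467 FPKM in wild-type CEI-marker libraries, which overlapped. GSTU3 (AT2G29470) had low levels, 4.31 to 9.70 FPKM in wox5-1 and 0 to 0.486 FPKM in wild-type QC-marker libraries, with a log2 change of 2.55 (SE 0.72). Its named values, like those of GSTU1, GSTU2 and GSTU7, were chosen after they were seen.

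GSTU1, GSTU2 and GSTU7 overlapped between the QC-marker groups through 1 library. GSTU1 was at 156, 153, 139 and 124 FPKM in wox5-1, beside 50.3, 222 and 52.2 FPKM in the wild type. GSTU2 was at 55.1, 57.7, 48.9 and 38.7 FPKM in wox5-1, beside 26.4, 123 and 24.9 FPKM in the wild type. GSTU7 was at 276, 372, 260.1 and 269 FPKM in wox5-1, beside 152, 377 and 179 FPKM in the wild type. In all 3 genes the wild-type value above the wox5-1 range was that of library 2, and the other 2 wild-type values lay below it. The log2 changes were 0.76 (SE 0.56), 0.19 (SE 0.64) and 0.42 (SE 0.72) for GSTU1, GSTU2 and GSTU7, and 1.455, 0.92 and 0.82 without wild-type QC-marker library 2. Without library 3 the change of GSTU2 was -0.20, and the lowest for GSTU1 with 1 library left out was 0.39.

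**Figure D2:**
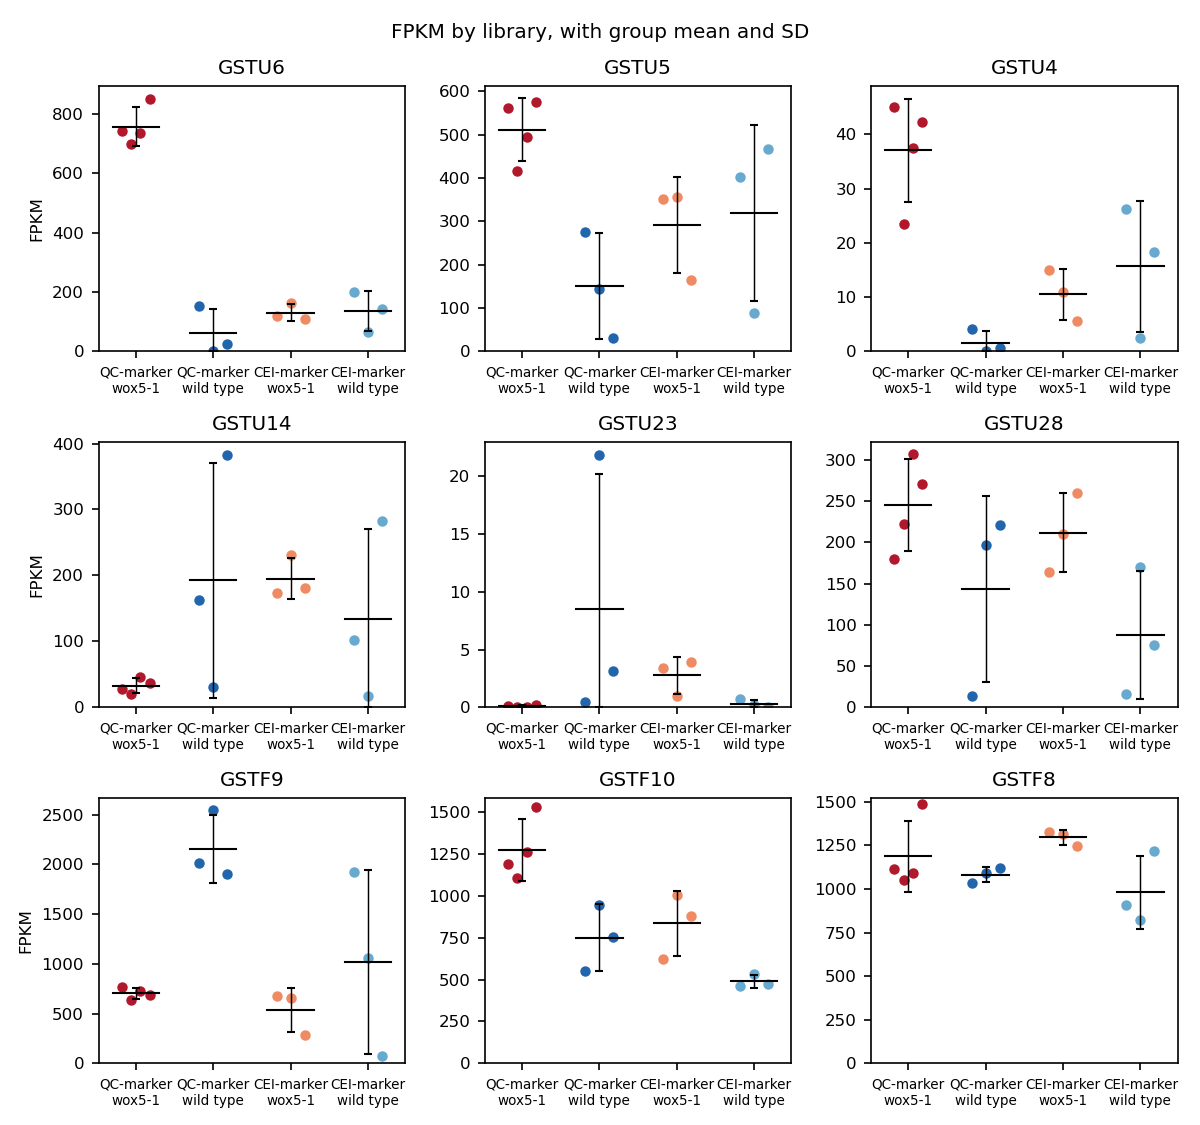
FPKM (vertical axes from 0) of 9 members in each library, with the mean (horizontal line) and SD (error bar) of wox5-1 QC-marker (n = 4), wild-type QC-marker, wox5-1 CEI-marker and wild-type CEI-marker libraries (n = 3 each). GSTU6, GSTU5 and GSTU4 are highest in wox5-1 QC-marker libraries, GSTF9 is highest in wild-type QC-marker libraries, and GSTF8 lies between 819.5 and 1487 FPKM in all 13.

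Ratios of neighbouring genes within a library do not depend on scaling between libraries. GSTU6 exceeded GSTU5 in all 4 wox5-1 QC-marker libraries, at 1.32 to 1.68 times its FPKM, and was below it in the other 9. The ratio was 0.555, 0.0181 and 0.835 in wild-type QC-marker libraries 1 to 3, 0.341 to 0.659 in wox5-1 CEI-marker libraries and 0.309 to 0.730 in wild-type CEI-marker libraries. A ratio shows only that the pair changed unequally. Fragments of close paralogs can also be assigned to the wrong copy, and the sources used here do not say how the authors treated such fragments.

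In a pair of tau genes with 1 protein-coding gene between them, GSTU13 and GSTU14, only GSTU14 had a lower estimate in wox5-1 QC-marker cells. That of GSTU13 was 0.39 (SE 0.43, and -0.26 without wild-type library 2), from groups that overlapped. GSTU14 (AT1G27140) was at 27.9, 19.6, 45.3 and 37.5 FPKM in wox5-1 QC-marker libraries, against 163, 31.0 and 383 FPKM in wild-type QC-marker libraries. Wild-type library 2 fell inside the wox5-1 range and the other 2 lay above it, so the groups overlapped (log2 change -1.98, SE 0.84). Without wild-type QC-marker library 2 the log2 change was -2.97, and without library 3 it was -1.18. GSTU14 was at 174, 231 and 181 FPKM in wox5-1 CEI-marker libraries and at 102, 16.8 and 283 FPKM in wild-type CEI-marker libraries, which overlapped. GSTU13, which acts in indole glucosinolate metabolism, stayed between 27.6 and 52.3 FPKM in 12 libraries and was at 12.7 FPKM in wild-type QC-marker library 2. The ratio of GSTU14 to GSTU13 was 0.517 to 0.940 in wox5-1 and 2.45 to 7.33 in wild-type QC-marker libraries, 4.63 to 5.07 in wox5-1 CEI-marker libraries, and 2.57, 0.609 and 9.43 in wild-type CEI-marker libraries 1, 3 and 4.

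**Figure D3:**
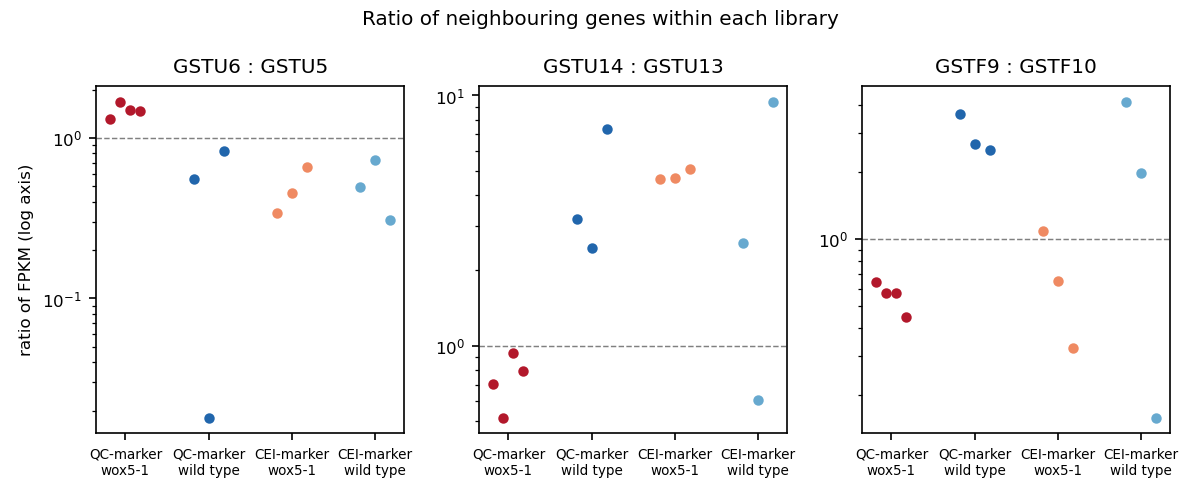
Ratio of the FPKM of neighbouring genes within each library, on log axes, for GSTU6 to GSTU5, GSTU14 to GSTU13 and GSTF9 to GSTF10, with 1 point per library and a dashed line at a ratio of 1. In wox5-1 QC-marker libraries GSTU6 exceeded GSTU5 and the other ratios were below 1, and in wild-type QC-marker libraries all 3 ratios were on the opposite side of the line.

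The cluster of GSTU19 to GSTU23 contained the member with the highest mean. GSTU19 (AT1G78380) was at 2273, 2659.5, 2036 and 1909 FPKM in wox5-1 QC-marker libraries, against 1529.8, 3981 and 1425 FPKM in wild-type QC-marker libraries, and these overlapped. Its log2 change there was 0.10 (SE 0.54), and it turned to -0.06 under median-of-ratios scaling and -0.16 without wild-type QC-marker library 3. It was at 1211, 1291 and 780.3 FPKM in wox5-1, beside 1329.6, 549.9 and 2933 FPKM in wild-type CEI-marker libraries. The highest value of each wild-type group was in QC-marker library 2 and CEI-marker library 4. GSTU20, which interacts with the jasmonate-conjugating enzyme JAR1, was at 0.619 to 3.17 FPKM in wox5-1 QC-marker libraries, against 19.5, 0 and 11.4 FPKM in the wild type, and the range over its CEI-marker libraries was 0.809 to 2.63 FPKM in wox5-1 and 0.0498 to 6.14 FPKM in the wild type. GSTU22 ranged from 117 to 158 FPKM in wox5-1 QC-marker libraries, against 126 to 968 FPKM in the wild type.

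GSTU23, at the end of this cluster and chosen after its values were seen, was the member whose groups did not overlap in opposite directions. It was at 0.125, 0, 0.0676 and 0.181 FPKM in wox5-1 QC-marker libraries, against 0.489, 21.9 and 3.13 FPKM in wild-type QC-marker libraries. In CEI-marker cells it was at 3.41, 0.952 and 3.95 FPKM in wox5-1, against 0.686, 0.211 and 0.0539 FPKM in the wild type. The gene was lower in wox5-1 than in the wild type among QC-marker cells (log2 change -2.25, SE 0.70, and -1.19 without wild-type library 2) and higher among CEI-marker cells (1.44, SE 0.75, limma adjusted p = 0.633). Most of these values are near or under 1 FPKM, where few fragments stand behind each.

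In the cluster of GSTU24, GSTU25 and GSTU26, whose genes lie next to each other, GSTU25 varied most. GSTU24 and GSTU25 are known for detoxifying the explosive TNT, and GSTU26 for its response to chloroacetanilide herbicides. GSTU25 (AT1G17180) was at 466, 579.9, 399 and 371 FPKM in wox5-1 QC-marker libraries, against 365, 1588 and 756 FPKM in wild-type QC-marker libraries (log2 change -0.76, SE 0.99, and -0.23 without wild-type library 2). It was at 498, 230.3 and 243 FPKM in wox5-1, beside 480.5, 29.2 and 2104 FPKM in wild-type CEI-marker libraries, so the wild type spanned the wox5-1 range in both populations. GSTU24 was at 106 to 141 FPKM in wox5-1 and 51.5 to 75.8 FPKM in wild-type QC-marker libraries (log2 change 0.93, SE 0.58). GSTU26 was at 615 to 778 FPKM in wox5-1 and 272 to 443 FPKM in wild-type QC-marker libraries (0.95, SE 0.33). Neither of these overlapped between the QC-marker groups, and both overlapped between the CEI-marker groups.

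The remaining tau pairs had lower levels. GSTU11 (AT1G69930) was at 17.3, 13.4, 23.8 and 21.1 FPKM in wox5-1 QC-marker libraries, against 22.8, 0 and 0.165 FPKM in the wild type, and at 0.983, 34.0 and 1.66 FPKM in wox5-1 CEI-marker libraries, against 5.39, 13.4 and 1.03 FPKM in the wild type. In wild-type QC-marker and wox5-1 CEI-marker cells a single library was far above the others. GSTU16 (AT1G59700) was at 3.90, 2.56, 1.62 and 2.57 FPKM in wox5-1 QC-marker libraries, against 0, 0 and 2.41 FPKM in the wild type, and at 6.48, 0.742 and 3.28 FPKM in wox5-1 CEI-marker libraries, against 3.57, 0.974 and 0 FPKM in the wild type. GSTU17 (AT1G10370), also called ERD9 for its early response to dehydration, was at 28.8, 46.3, 55.0 and 22.3 FPKM in wox5-1 QC-marker libraries, against 19.2, 0 and 16.7 FPKM in the wild type. The QC-marker groups of GSTU17 did not overlap (log2 change 2.38, SE 0.84), and the change was 0.96 without wild-type QC-marker library 2, where it was listed at 0. Among CEI-marker libraries GSTU17 was at 28.5, 39.5 and 29.6 FPKM in wox5-1, beside 41.1, 11.8 and 11.7 FPKM in the wild type. Their partners GSTU12, GSTU15 and GSTU18 were at 0 to 23.0, 0 to 0.448 and 0 to 4.59 FPKM over the 13 libraries.

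Among the tau genes outside clusters, GSTU28 (AT1G53680) had the highest mean over the 13 libraries. It was at 180.2, 222, 307 and 271 FPKM in wox5-1 QC-marker libraries, against 14.2, 196 and 221 FPKM in the wild type, and at 165, 209.9 and 260.2 FPKM in wox5-1 CEI-marker libraries, against 15.9, 170.3 and 76.2 FPKM in the wild type. Library 1 of each wild-type group was far below every other library of its population, and the other wild-type libraries overlapped with wox5-1 or lay closer to it. The log2 change was 1.47 (SE 0.84) in QC-marker cells and 1.78 (SE 0.90, limma adjusted p = 0.630) in CEI-marker cells. Without the wild-type library 1 of each population these were 0.20 and 0.86. GSTU27 was the steadiest tau gene, at 97.9 to 184 FPKM in all 13 libraries. GSTU9 was at 10.5 to 20.7 FPKM in wox5-1 and 0 to 5.49 FPKM in wild-type QC-marker libraries (log2 change 2.62, SE 0.76), while GSTU8 and GSTU10 were at 15.7 to 185 and 0 to 9.88 FPKM over the 13 libraries and overlapped between the QC-marker groups.

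The phi pair GSTF9 and GSTF10, next to each other in the annotation, diverged in QC-marker cells. GSTF9 (AT2G30860) was at 764, 635, 725 and 685 FPKM in wox5-1 QC-marker libraries, against 2015, 2544 and 1901 FPKM in wild-type QC-marker libraries. Every wild-type library was well above every wox5-1 library (log2 change -1.61, SE 0.79). In CEI-marker cells GSTF9 was at 681, 655 and 286 FPKM in wox5-1, beside 1919, 1058 and 75.4 FPKM in the wild type, libraries 1, 3 and 4. The CEI-marker groups overlapped, with the lowest and the highest value both in the wild type.

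GSTF10 (AT2G30870) was higher in wox5-1 than in the wild type in both populations by range. It was at 1189.6, 1109, 1265 and 1532 FPKM in wox5-1 QC-marker libraries, against 550.3, 948 and 755 FPKM in the wild type (a change of 0.79 on the log2 scale, SE 0.33). In CEI-marker cells it was at 624, 1007 and 878 FPKM in wox5-1, against 462, 534 and 477 FPKM in the wild type. That change of 0.74 (SE 0.35, 95% interval -0.0051 to 1.49) did not pass the test (limma adjusted p = 0.621, and 0.063 to 1 over the alternatives). The ratio of GSTF9 to GSTF10 was 0.447 to 0.642 in wox5-1 QC-marker libraries and 2.52 to 3.66 in wild-type QC-marker libraries. In CEI-marker libraries it was 0.326 to 1.09 in wox5-1 and 4.15, 1.98 and 0.158 in wild-type libraries 1, 3 and 4, so that wild-type library 4 alone lay below the wox5-1 range.

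GSTF8 (AT2G47730) had the highest mean of the phi genes over the 13 libraries and the smallest ratio of highest to lowest value among the members. By group mean it led the phi class in wox5-1 CEI-marker cells, while GSTF10 led in wox5-1 QC-marker cells and GSTF9 in both wild-type groups. It was at 1118, 1050.5, 1094 and 1487 FPKM in wox5-1 QC-marker libraries, against 1035, 1094 and 1119.7 FPKM in the wild type (a change of 0.12 on the log2 scale, SE 0.32, and -0.04 under median-of-ratios scaling). In CEI-marker libraries it was at 1327, 1317 and 1249 FPKM in wox5-1, against 907, 819.5 and 1218 FPKM in the wild type, ranges that did not overlap (0.42, SE 0.34, limma adjusted p = 0.745). Its highest value over 13 libraries was 1.81 times its lowest.

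The other phi genes were low. GSTF6 (AT1G02930), which acts in camalexin synthesis, was at 24.4, 9.81, 9.12 and 26.1 FPKM in wox5-1 QC-marker libraries, against 7.56, 0 and 8.60 FPKM in the wild type, and at 18.3, 10.8 and 0.137 FPKM in wox5-1 CEI-marker libraries, against 8.01, 4.74 and 23.1 FPKM in the wild type. Its QC-marker groups did not overlap, though 9.12 FPKM in wox5-1 was close to 8.60 FPKM in the wild type (a change of 1.93 on the log2 scale, SE 0.99, and 0.87 without library 2, where it was listed at 0). GSTF6 and its neighbour GSTF7, and likewise GSTF2 and GSTF3, are close paralogs that may share fragments, so their separate levels are uncertain. GSTF13 was at 9.23 to 16.9 FPKM in wox5-1 and 0 to 7.99 FPKM in wild-type QC-marker libraries (1.75, SE 0.78, and 0.82 without library 2, again at 0), and at 8.53 to 25.9 FPKM in wox5-1 and 5.89 to 58.5 FPKM in wild-type CEI-marker libraries. GSTF2, which binds indole compounds, GSTF7, and GSTF12, the anthocyanin carrier known as TT19, stayed at or below 16.5 FPKM in every library and overlapped between the QC-marker groups.

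**Figure D4:**
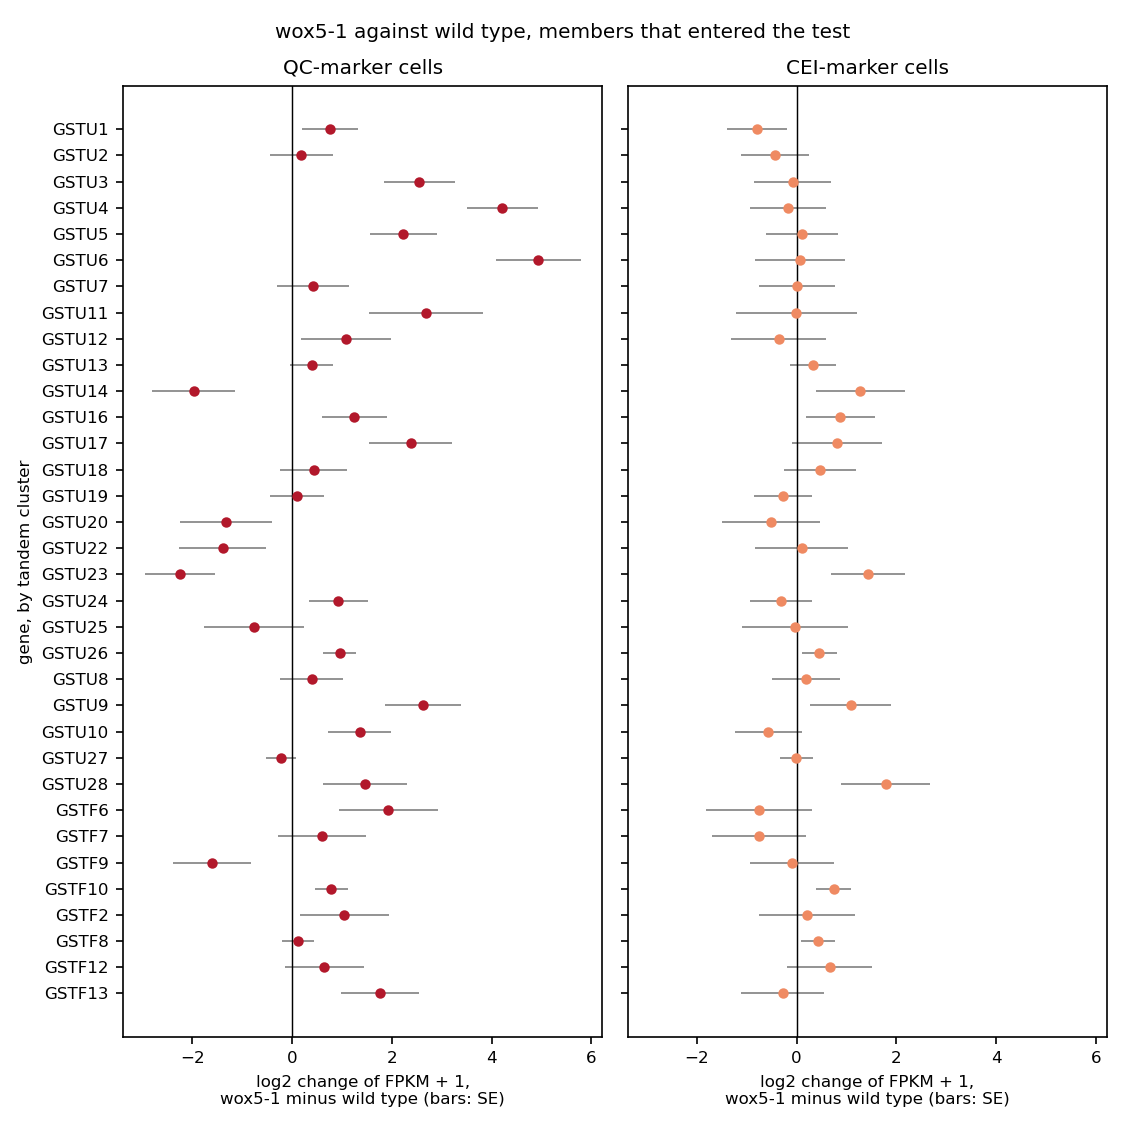
Log2 change of FPKM + 1, wox5-1 minus wild type, with its SE as bars, for the 34 members tested in QC-marker cells (left) and CEI-marker cells (right), by tandem cluster. GSTU6 (4.94) and GSTU4 (4.22) lie farthest to the right in QC-marker cells, and in CEI-marker cells no member lies beyond 1.78.

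Between wox5-1 and wild-type CEI-marker cells, 0 of the 34 members were called by limma. The means compared share no library with the comparison that chose the classes. The spread behind the SE and p-values was estimated over all 13 libraries, so these are not independent of that comparison. Fitted with the CEI-marker libraries alone, 0 members and 0 of 19802 genes tested were called. Of all genes tested, 0.0278% were called, and 0 members reached an unadjusted p under 0.05, where 8.04% of all genes did. The members' median log2 change was 0.04, beside 0.08 over all genes tested. Ranges did not overlap for 3 members higher in wox5-1, GSTU23, GSTF8 and GSTF10, where 7.19% of all genes were so, and for 0 members lower, where 3.81% were. The largest change among the 34 was that of GSTU28. With wild-type QC-marker library 2, wild-type CEI-marker library 4 and wox5-1 CEI-marker library 1 left out, 4 members (GSTU9, GSTU14, GSTU20 and GSTF9) and 21.9% of the genes tested were called.

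Between QC-marker and CEI-marker cells of the wild type, 0 of the 34 members were called, beside 0.357% of all genes tested. This comparison shares the wild-type QC-marker libraries with the one that chose the classes. At an unadjusted p under 0.05 there were 6 members, where 12.1% of all genes tested passed: GSTU23 and GSTF9 higher in QC-marker cells, and GSTU3, GSTU4, GSTU6 and GSTF13 lower. Their log2 changes were 2.01 (SE 0.75) for GSTU23, 1.99 (SE 0.84) for GSTF9, -2.25 (SE 0.77) for GSTU3, -2.62 (SE 0.76) for GSTU4, -2.32 (SE 0.91) for GSTU6 and -2.44 (SE 0.84) for GSTF13, with limma adjusted p of 0.207 to 0.379. The libraries did not overlap for GSTF10, higher in QC-marker cells, where 5.98% of all genes were so, and for GSTU3, lower there, where 4.07% were. Without wild-type QC-marker library 1, GSTU6 (log2 change -3.65, adjusted p = 0.0245) and GSTU23 (2.91, adjusted p = 0.0467) were called, beside 1.61% of all genes. Without library 2 these changes were -0.94 for GSTU6 and 0.94 for GSTU23, and that of GSTF13 was -1.51. Without wild-type CEI-marker library 4, that of GSTF9 was 0.58 and that of GSTU3 was -1.24.

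Between QC-marker and CEI-marker cells of wox5-1, 0 of the 34 members were called, beside 4.31% of all genes tested. Here the wox5-1 QC-marker libraries are shared with the comparison that chose the classes. The 6 members at an unadjusted p under 0.05, where 20.9% of all genes tested passed, were GSTU1, GSTU4, GSTU6 and GSTU10, higher in QC-marker cells, and GSTU14 and GSTU23, lower. GSTU1 had the smallest adjusted p, 0.0743, at a log2 change of 1.88 (SE 0.56), with 124 to 156 FPKM in QC-marker and 29.5 to 53.1 FPKM in CEI-marker libraries. GSTU14 followed at -2.60 (SE 0.84, adjusted p = 0.0969) and GSTU6 at 2.55 (SE 0.85, adjusted p = 0.108), both from groups far apart. Ranges did not overlap for 11 members higher in QC-marker cells (GSTU1, GSTU2, GSTU4 to GSTU7, GSTU9, GSTU10, GSTU19, GSTU24 and GSTF10), where 26.5% of all genes were so, and for 2 members lower (GSTU14 and GSTU23), where 9.72% were. Of the cluster GSTU1 to GSTU7, only GSTU3 overlapped.

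The count differed between fits. Fitted with the wox5-1 libraries alone, 9 members were called (GSTU1, GSTU2, GSTU4, GSTU6, GSTU7, GSTU9, GSTU10 and GSTU19 higher in QC-marker cells and GSTU14 lower), beside 26.8% of the 19735 genes then tested. GSTU6 had a limma adjusted p of 0.000296 and GSTU14 of 0.000832 in that fit. It too holds the wox5-1 QC-marker libraries in which GSTU6 drew attention to the classes, so these calls are a description. With array weights 14 members were called, beside 34.8% of all genes, and with the 3 libraries that stand apart left out 6 were, beside 31.8%. In the unweighted fit of all groups, the count was 4 leaving out wild-type QC-marker library 2 (beside 11.7% of all genes), 2 leaving out wild-type CEI-marker library 3 (beside 4.57%), and 1 leaving out wild-type QC-marker library 1 (beside 4.85%) or CEI-marker library 4 (beside 6.25%). The median SD of log2(FPKM + 1) over the genes tested was 0.263 in wox5-1 QC-marker, 0.924 in wild-type QC-marker, 0.553 in wox5-1 CEI-marker and 0.685 in wild-type CEI-marker libraries. For the 34 members it was 0.321 in wox5-1 QC-marker, 1.21 in wild-type QC-marker, 0.551 in wox5-1 CEI-marker and 1.30 in wild-type CEI-marker libraries, so the members were more spread than the typical gene in the wild type and close to it in wox5-1 CEI-marker cells.

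For the difference of the genotype effects between the populations, which contains the comparison that chose the classes, 0 of the 34 members and 0.0232% of all genes tested were called by limma. These counts are a description. At an unadjusted p under 0.05 there were 6 members, where 11.1% of all genes tested passed. With the 3 libraries that stand apart left out 4 members were called, beside 14.3%, and 2 without wild-type QC-marker library 1, beside 0.276%. Beside GSTU6, the estimates on the log2 scale were 4.40 (SE 1.04) for GSTU4, 2.64 (SE 1.05) for GSTU3, -3.25 (SE 1.22) for GSTU14 and -3.69 (SE 1.02) for GSTU23. The members' median was 0.45, beside 0.32 over all genes tested.

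A set of tau genes peaked in the same 2 wild-type libraries. For 10 of the 34 members (29.4%), wild-type QC-marker library 2 was the highest of the wild-type QC-marker libraries and wild-type CEI-marker library 4 the highest of the wild-type CEI-marker libraries. These were GSTU1, GSTU2, GSTU7, GSTU8, GSTU12, GSTU19, GSTU22, GSTU24, GSTU25 and GSTU26, all tau, and the pattern was chosen after the values were seen. The same held for 2303 of the 21574 genes tested (10.7%). The summed FPKM of 5 root cap markers (CEL5, BRN1, BRN2, SMB and FEZ) was 154, 989.9 and 670.2 in wild-type QC-marker libraries 1 to 3 and 103, 10.4 and 2371 in wild-type CEI-marker libraries 1, 3 and 4, with all 5 above 0 in each. The markers were not alike in wild-type QC-marker cells. BRN1 (302 FPKM) and BRN2 (301 FPKM) peaked in library 2, while CEL5, SMB and FEZ were highest in library 3. In wild-type CEI-marker cells all 5 were highest in library 4. In wox5-1 the sum was 201 to 256 FPKM in QC-marker and 189 to 254 FPKM in CEI-marker libraries. The part of root cap cells in the levels of these members was not tested.

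**Figure D5:**
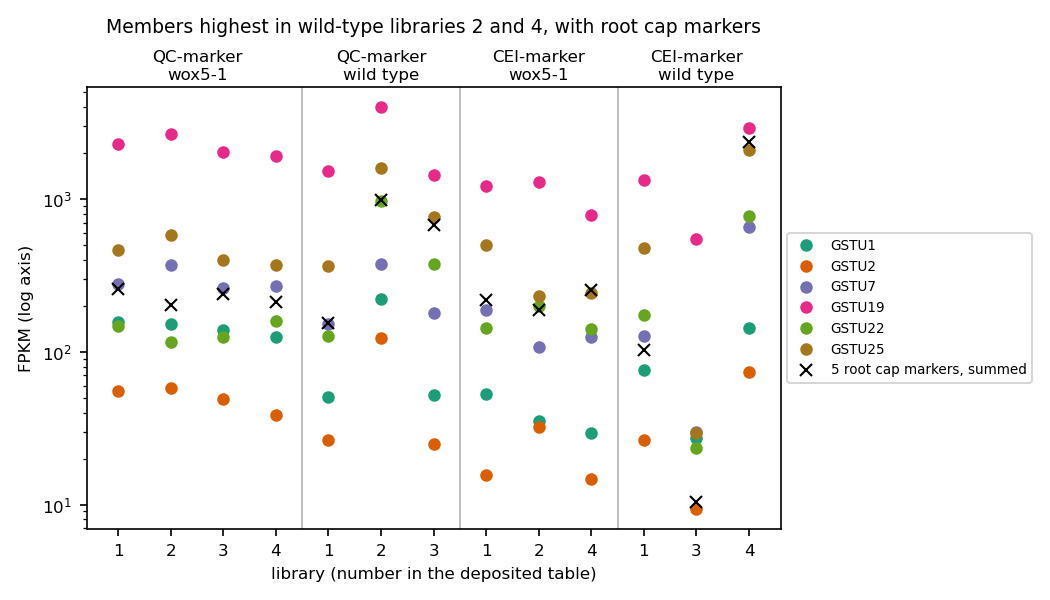
FPKM on a log axis of 6 tau members (coloured points) and of 5 root cap markers summed (crosses) in each of the 13 libraries. Wild-type QC-marker library 2 and wild-type CEI-marker library 4 have the highest crosses, at 989.9 and 2371 FPKM, though CEL5, SMB and FEZ alone were highest in wild-type QC-marker library 3, and the 2 libraries have the highest values of their group for all 6 members.

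Genes around the tau and phi classes in the pathway were taken from 4 lists drawn from textbook knowledge, with earlier results of these data known. Other glutathione transferase classes (zeta, lambda, theta, the dehydroascorbate reductases and TCHQD) had 0 of 11 tested members called by limma in each of the 5 comparisons, with a median log2 change of 0.62 in QC-marker cells, wox5-1 minus wild type. Glutathione synthesis, reduction and breakdown had 0 of 10 called in each, and the vacuolar ABCC transporters 0 of 5 in each. At an unadjusted p under 0.05, the number over the 5 comparisons was 0 to 3 for each of the first lists and 0 to 1 for the transporters, where 8.04% to 20.9% of all genes passed (19.7% in QC-marker cells, wox5-1 against wild type). In QC-marker cells, 2 genes of the other classes (GSTZ1 and GSTT3) were called without wild-type library 1 (beside 7.08% of all genes) and 1 (TCHQD) without wild-type library 3 (beside 3.20%). For glutathione synthesis, reduction and breakdown the count was 1 in 1 of 23 alternatives, and 0 leaving out each library. Over these alternatives 0.927% to 8.86% of all genes were called. The list of xenobiotic and oxylipin response genes had 3 of 13 called in QC-marker cells, all higher in wox5-1, where 3.05% of all genes were called higher, and 0 of 13 in the 4 other comparisons, where 0 to 5 had an unadjusted p under 0.05. Its median log2 change in QC-marker cells was 1.35. This comparison was the one that chose the members, so these counts too are a description.

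The 3 called genes had their highest group mean in wox5-1 and their lowest in wild-type QC-marker cells, as did GSTU6. CYP81D11, a cytochrome P450 induced by xenobiotics and cis-jasmone, was at 423, 304, 338 and 440.2 FPKM in wox5-1 QC-marker libraries, against 111, 9.64 and 1.44 FPKM in the wild type (a change of 4.71 on the log2 scale, SE 1.04). OPR2, an oxophytodienoate reductase, was at 195, 152, 169.8 and 228 FPKM in wox5-1 against 75.2, 3.51 and 49.8 FPKM in the wild type (2.84, SE 0.73). MSRB8, a methionine sulfoxide reductase, was at 133, 128, 106 and 216 FPKM in wox5-1 against 24.0, 0.346 and 0.784 FPKM in the wild type (5.18, SE 0.86). None of the 3 overlapped between the QC-marker groups, where 17.8% of all genes tested were higher by range. These genes are named because they were called there, so this adds no support. All 3 overlapped between the CEI-marker groups, where 7.19% of all genes were higher and 3.81% lower by range. OPR2 was at 1.57 on the log2 scale without wild-type QC-marker library 2. MSRB8 was the only called gene of the list without wox5-1 QC-marker library 1, 2, 3 or 4. CYP81D11 also lost its call without wild-type QC-marker library 2 or 3, and OPR2 kept its own only without wild-type QC-marker library 1 or 3 or wild-type CEI-marker library 3 or 4.

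The summed level of 5 wounding and jasmonate markers (JAZ7, JAZ8, JAZ10, WRKY40 and ZAT12) moved with GSTU4 and GSTU6 in QC-marker cells. It was 1012 to 1147 FPKM in wox5-1 and 244 to 566 FPKM in wild-type QC-marker libraries, which did not overlap, and 4 of the 5 markers were called higher in wox5-1, beside 3.05% of all genes. The markers were listed with earlier results of these data known, and this comparison chose the classes, so the count is a description. In CEI-marker libraries the sum was 485 to 910 FPKM in wox5-1 and 291 to 998 FPKM in the wild type. Some cell-type markers also differed by range between the QC-marker groups. RSL4 (log2 change 2.13), TMO5 (1.49), CYCD6;1 (1.82) and the green tissue marker AT1G29930 (1.15) were higher in wox5-1. BRN1 (-2.48), BRN2 (-2.86), WER (-1.44) and NUC (-1.24) were lower. So were the QC markers WOX5 (-7.71), AGL42 (-1.13), TEL1 (-1.82) and WIP5 (-0.90). Of these only WOX5 was called, and 17.8% of all genes were higher and 5.82% lower by range. The other cell-type markers overlapped, among them the root cap markers SMB (1.09) and FEZ (1.80), with estimates opposite to BRN1 and BRN2. The part of wounding and jasmonate responses or of cell types in the levels of GSTU4 and GSTU6 was not tested.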

How the data were processed

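RNA of sorted root protoplasts was amplified as cDNA with a low-input SMARTer kit and sheared by ultrasound before library preparation, per the labels' protocols, and no molecular identifiers are named. The authors deposited FPKM values for 33560 genes in 13 libraries. Per the submitters' processing notes Cufflinks was used, with no version named. Aligner, genome build, annotation and strand setting: not given in the sources used here. Hence neither coordinates nor sequences are printed, and the comparison of proteins and promoters that had been planned was not made. Overlapping genes and close paralogs cannot be told apart with certainty.

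Libraries were grouped by their titles. FPKM + 1 was log2-transformed (pseudocount 1), genes with at least 1 FPKM in at least 3 libraries were kept (21574), and limma 3.58.1 (R 4.3.3) fitted a mean per group with a mean-variance trend over all 13 libraries, 2-sided, with 9 residual degrees of freedom plus 5.28 from the shared prior. P-values were adjusted by Benjamini-Hochberg over all genes tested. The fit was run on simulated data in which all libraries of a gene had 1 common spread. The groups here differ in spread, so that run cannot vouch for the calls on these data. Relative depth came from the FPKM step of 1 fragment, which recurs between libraries in low genes. The step for wild-type QC-marker library 2 rested on 12 of 134 ratios. No 2 libraries held identical values, and where nothing says that libraries came from separate cultures, p-values measure only the spread between them. RefSeq gene names and neighbours (TAIR10.1) were found for 32826 of the 33560 identifiers and for all 39 members.

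The members and lists were chosen with earlier results of these data known. Values per library are given for members called in any comparison, for the member with the highest mean FPKM of each tandem cluster and among the singletons of each class, and for called members of the pathway lists. Other members named were chosen after their values were seen. Alternatives were 2 pseudocounts, 2 filters, 2 scalings, array weights, fits of the compared groups only, a replicate block and leaving out each library, and, added after seeing the data, leaving out 3 libraries together.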

Additional observations from a re-analysis of the deposited data

Results flagged for a closer look

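In the group of 4 wox5-1 QC-marker libraries, the only one large enough for a check of single libraries, 4 of the 34 members tested had a library far from the other 3 (Dixon's 95% limit, which chance passes in about 1 of 20 groups). GSTU7 was at 371.7 FPKM in library 2 and at 260.1 to 276.1 FPKM in the others. GSTU18 was at 1.868 FPKM in library 4 and at 0.747 to 0.920 FPKM in the others. GSTF8 was at 1487 FPKM in library 4 and at 1050.5 to 1118 FPKM in the others. GSTF13 was at 16.9 FPKM in library 3 and at 9.23 to 10.5 FPKM in the others.

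GSTU23 differed between genotypes in opposite directions by range, every wox5-1 library below every wild-type library among QC-marker cells and above every one among CEI-marker cells. The difference of its effects was -3.69 on the log2 scale (SE 1.02), given without a p-value since it contains the comparison that chose the classes.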

How the results depend on the processing

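In QC-marker cells, wox5-1 against wild type, 2 members were called, beside 3.43% of all genes. The count was 6 with array weights (beside 5.80%), 4 with only the libraries of the groups compared (beside 5.40%) and 10 with the 3 libraries that stand apart left out (beside 8.86%). It was 2 to 5 leaving out each library in turn, beside 0.927% to 7.08% of all genes. The genes called numbered 741, and between 199 and 1851 over the alternatives. In CEI-marker cells 0 members were called, 4 with the 3 libraries left out (beside 21.9% of all genes) and 0 leaving out each library in turn. Between populations, the count in the wild type was 0, and 0 to 2 leaving out each library, the 2 without wild-type QC-marker library 1 (beside 1.61%). In wox5-1 it was 0, and 1 under quantile normalization (beside 5.44% of all genes). It was 14 with array weights (beside 34.8%), 9 with only the groups compared (beside 26.8%) and 6 with the 3 libraries left out (beside 31.8%). Leaving out each library gave 0 to 4, the 4 without wild-type QC-marker library 2 (beside 11.7%). The difference of effects gave 0 members, 4 with the 3 libraries left out (beside 14.3%) and 0 to 2 leaving out each library. The 2 came without wild-type QC-marker library 1 (beside 0.276%). The cause of these shifts was not tested.

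Signs turned in CEI-marker cells for GSTU6, at -0.0015 with array weights and -0.40 to 0.41 leaving out each library, and for GSTU4, at -1.08 to 0.40 leaving out each library. Single turned values were -0.40 and -0.10 for GSTU6 and 0.40, 0.15 and 0.18 for GSTU4. In QC-marker cells the change of GSTU13 was 0.39, and -0.26 without wild-type library 2. That of GSTU2 was 0.19, and -0.20 to 0.92 leaving out each library, and that of GSTU19 was 0.10, and -0.16 to 0.58. Of the values for single genes and the call counts of the pathway lists, 717 leaving out a library and 485 under other alternatives stayed the same. That means a like count, the same direction and side of the threshold, or a move by less than the spread. Of the others, 9 and 22 moved further, 10 and 15 gained a call and 5 and 1 turned sign.

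The replicate block (QC-marker libraries 1 to 3 of each genotype) called 3 members, beside 2.26% of all genes. Same-numbered libraries did not deviate together (correlations 0.03, 0.09 and -0.06). With so few libraries, this cannot show whether they shared a day or culture. No paired analysis was possible for the CEI-marker groups because their columns carry no replicate numbers of the titles. Wild-type QC-marker libraries were the shallowest, so values near or under 1 FPKM are least certain there.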
